A study of Mus musculus with 6 samples.

Results

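The genes described are those of dystrophin (Dmd), its homolog utrophin (Utrn), the dystrobrevins and the beta syntrophins, measured in heart ventricles of dystrophic mice with and without finerenone, a non-steroidal antagonist of the mineralocorticoid receptor. A gene was taken where a row of the deposited table was annotated with a single gene symbol, which gave Dmd, Utrn, Dtnb, Sntb1 and Sntb2, 5 of the 6 genes listed and of 30142 genes in all. Each of the 5 had 1 row, so no choice between rows was needed. The row of the sixth gene, Dtna (alpha-dystrobrevin), also lists the symbol Gm19389, and its values stand apart below as a row outside the rule. The genes were chosen by name and not by their values.

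Dystrophin is a rod-shaped protein that ties cortical actin in muscle fibres to dystroglycan, a receptor for laminin in the surrounding matrix, and so braces the cell membrane against contraction. Utrophin has the same architecture, is found in endothelium and at neuromuscular junctions, and spreads along the membrane of dystrophin-deficient muscle, where it takes over part of dystrophin's role. Dystrobrevins bind dystrophin or utrophin through a coiled coil, and syntrophins are adaptors with PDZ domains that hang on these proteins and recruit nitric oxide synthase, ion channels and kinases. In the heart the loss of dystrophin leads to membrane damage, inflammation, fibrosis and cardiomyopathy.

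All 6 mice were males of 20 weeks on the C57BL/10 background with the genotype utrn+/-; mdx. The mdx allele is a nonsense mutation of Dmd that prevents full-length dystrophin, and utrn+/- leaves a single working copy of Utrn. Chow of the finerenone group (3 mice) held 100 ppm of the compound, given from weaning at 4 weeks, and the untreated group (3 mice) had the plain chow. Assignment was random, per the labels, and each mouse gave 1 array. Since the genotype was shared by both groups, the comparison concerns the diet in mice that already lack dystrophin, and healthy hearts were not analysed here. The array row of Dmd measures RNA and not whether it encodes a functional protein, and the row of Utrn does not tell the working copy from the disrupted one.

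Values are log2 signals of the array, made by the authors with RMA, and a difference of 1 is a 2-fold change. No number of reads stands behind them, and the number of arrays limits the precision. Over all genes the median difference, finerenone minus untreated, was 0.028, and 41.8% of them were lower with finerenone. The tissue label was matched by its markers, with 11 measured cardiomyocyte genes averaging 16.43 to 16.55 on every array and 0 of them below the median of the negative control rows. Untreated replicate 1 had the lowest mean correlation with the other arrays (0.990, against 0.992 or 0.993 for the rest).

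RefSeq windows before transcription starts were matched for 3 of the 5 genes, Dmd, Utrn and Dtnb, on mouse build GRCm38.p6. For Dmd the table lists a pair of starts that lie 5.61% and 93.4% of the way along the gene. The gene is known to make full-length dystrophin from upstream starts and short carboxy-terminal isoforms from downstream ones. With 1 row for the gene, the array values below do not separate transcripts of the starts. The 250 bases before each listed start of Dmd and Utrn are shown. The hexamer AGAACA or its reverse complement TGTTCT is in capitals, which is the half-site bound by the mineralocorticoid and glucocorticoid receptors.
Dmd upstream start, chrX:82948620-82948869, plus strand: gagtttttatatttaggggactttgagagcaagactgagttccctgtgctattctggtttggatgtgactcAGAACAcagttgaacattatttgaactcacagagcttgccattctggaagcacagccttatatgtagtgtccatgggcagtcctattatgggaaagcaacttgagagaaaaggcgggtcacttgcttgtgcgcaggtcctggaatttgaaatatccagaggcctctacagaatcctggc
Dmd downstream start, chrX:85048045-85048294, plus strand: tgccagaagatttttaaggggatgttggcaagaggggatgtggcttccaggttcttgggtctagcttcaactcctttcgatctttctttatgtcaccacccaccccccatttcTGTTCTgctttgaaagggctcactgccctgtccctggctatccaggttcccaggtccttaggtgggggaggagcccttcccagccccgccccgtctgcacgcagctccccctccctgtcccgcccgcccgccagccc
Utrn, chr10:12861736-12861985, minus strand: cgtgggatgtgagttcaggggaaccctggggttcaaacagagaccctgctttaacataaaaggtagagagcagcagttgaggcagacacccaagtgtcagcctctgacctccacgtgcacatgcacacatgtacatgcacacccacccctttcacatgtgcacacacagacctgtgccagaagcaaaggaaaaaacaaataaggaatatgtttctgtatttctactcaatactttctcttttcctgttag

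Each Dmd window held the hexamer once, beginning 179 bases before the upstream start and 137 bases before the downstream one. The Utrn window held it on neither strand. It also held neither TTCCGG nor CCGGAA, the core of the N-box through which Ets factors are known to act on utrophin. That window belongs to a listed start 8.15 kb into the gene. Bases before the beginning of the gene were not searched, so the missing motifs do not describe a promoter there. Whether the window printed here acts as a promoter was not tested. The 4 Dtnb windows held neither motif on either strand. On either strand AGAACA was present in 5277 of 32817 RefSeq windows of that length (16.1%) and TTCCGG in 3944. These matches describe letters and no binding was measured.

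Utrn had the lowest p of the 5 genes. Its signal was 9.81, 9.75 and 9.81 in the finerenone mice and 10.19, 9.92 and 10.23 in the untreated mice. Every treated heart lay below every untreated heart, and the treated hearts were within 0.059 of each other while the untreated ones spanned 0.31. The group means were 9.79 ± 0.033 and 10.11 ± 0.17 (SD, n = 3 each), a log2 difference of -0.32 ± 0.10 (SE), or 0.802 of the untreated signal with a 95% interval of 0.675 to 0.953 before any adjustment. In limma the unadjusted p was 0.0197 and the adjusted p was 0.597, so Utrn did not pass the threshold of 0.05. That adjusted p is also the smallest that any of the 30142 genes had, and Utrn ranked 986 in the order of unadjusted p.

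Counts over the table put this in scale. At an adjusted p below 0.05 limma called 0 of 30142 genes (0%), and 0 of the 5 genes. An unadjusted p below 0.05 was reached by 2353 genes (7.81%), of which 638 were lower in treated hearts (2.12%) and 1715 higher (5.69%). The higher genes thus made up 72.9% of them, and 59.2% of the 2134 genes that reached that p after quantile normalization. A fit of only the 11356 genes with a mean signal of at least 6 put 1305 at that p, a larger share than over all genes. Of the 5 genes, 1 was at that p, which was Utrn. With 1 array left out, limma put Utrn at an unadjusted p of 0.0569 (finerenone replicate 2 left out), 0.0587 (untreated replicate 1) or 0.0667 (untreated replicate 3), so its place in this count rested on each of those arrays. Groups that did not overlap were found for 3723 genes (12.4%), 1260 of them lower with finerenone (4.18%) and 2463 higher (8.17%), and of the 5 genes again for Utrn alone. The difference of the 5 genes was negative for 3 and positive for 2, with a median of -0.041, while 41.8% of all genes had a negative one.

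**Figure D1:**
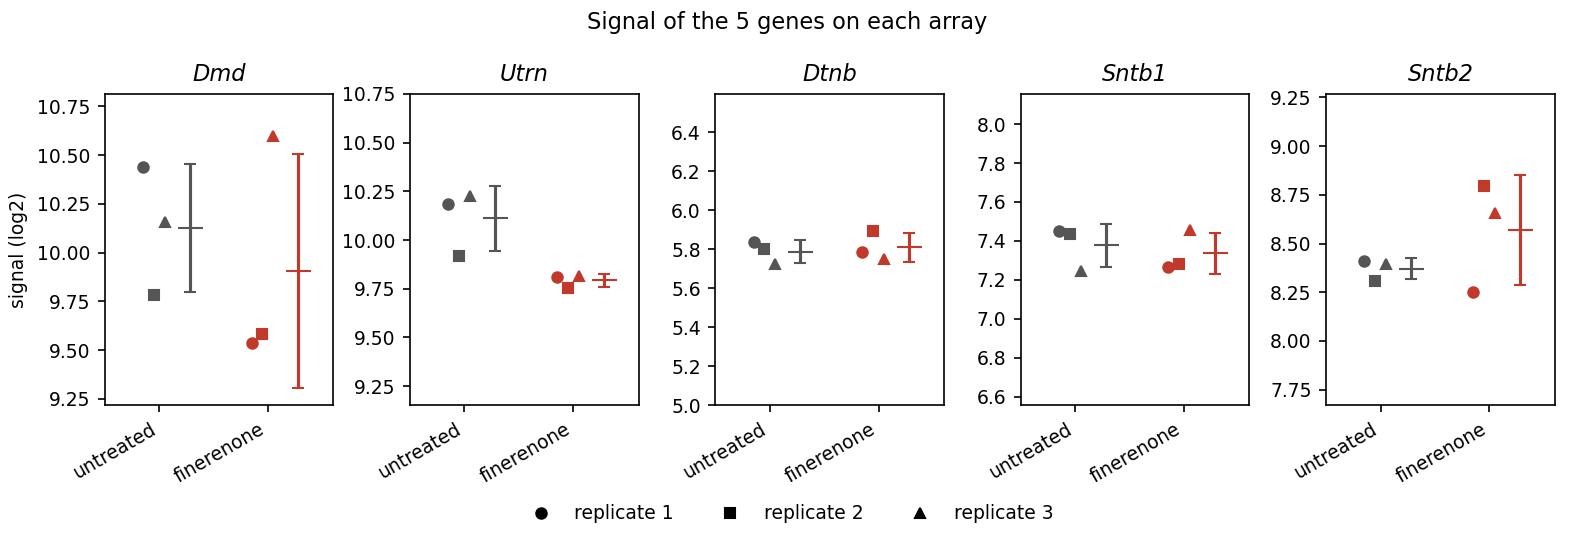
Log2 signal (y axis, the same height in log2 units in each panel) of the 5 genes in untreated (grey) and finerenone (red) hearts, 1 point per mouse with the marker shape giving the replicate number and a bar for the mean and SD. The 3 finerenone values of Utrn lie between 9.75 and 9.81, below all untreated values, while those of Dmd run from 9.53 to 10.60 and enclose the untreated ones.

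Dmd itself varied more between mice than between groups. The finerenone mice measured 9.53, 9.58 and 10.60 and the untreated mice 10.44, 9.78 and 10.16. The highest and the lowest of all 6 values both came from the finerenone group, so the groups overlapped throughout. The means were 9.91 ± 0.60 and 10.13 ± 0.33 (SD, n = 3 each), and the log2 difference was -0.22 ± 0.32 (SE; limma adjusted p = 0.903). Its 95% interval of -0.99 to 0.55 corresponds to 0.504 to 1.46 of the untreated signal. The spread within groups, pooled over both, was 0.48, larger than in 96.6% of the 11356 genes with a mean signal of at least 6. Utrn had a pooled spread of 0.12, larger than in 29.1% of those genes.

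The signal of Dmd was well within the measured range in these mice. Its mean of 10.02 exceeded that of 97.9% of the negative control rows, and it stood above their median on 6 of 6 arrays. For Utrn the corresponding values were 9.95 and 97.8%. Signal of the Dmd row was therefore above background in both groups, although the mice carry the mdx allele. Levels of different genes were not set against each other, since each row has its own probes.

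Beta-dystrobrevin (Dtnb) is the form known mainly from non-muscle tissue, where it binds the short dystrophins and utrophin. It was dim, with 5.78, 5.89 and 5.75 in treated and 5.84, 5.80 and 5.72 in untreated hearts. The 6 values lay within 0.17 of each other and the groups overlapped. The log2 difference was 0.022 ± 0.080 (SE; limma adjusted p = 0.974), with a 95% interval of -0.17 to 0.22. The mean of 5.80 exceeded that of only 65.2% of the negative control rows, so the interval bounds the measured signal and not the RNA.

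Alpha-dystrobrevin (Dtna), the form that joins the dystrophin complex of heart and skeletal muscle, could be read only from the row shared with Gm19389, a name that RefSeq lists as a synonym of Dtna. That row measured 7.24, 7.56 and 7.50 in the finerenone mice and 7.28, 7.49 and 7.37 in the untreated mice. The groups overlapped, with the lowest value in finerenone replicate 1 and the highest in finerenone replicate 2. Fitted with all 65956 transcript rows of the table, the log2 difference was 0.055 ± 0.12 (SE), and the adjusted p in limma was 0.965.

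The beta syntrophins differed in opposite directions, each with a 95% interval that included 0. Sntb1 (beta1-syntrophin) measured 7.27, 7.28 and 7.46 with finerenone and 7.45, 7.43 and 7.25 without it. Both groups covered nearly the same span, and the log2 difference was -0.041 ± 0.098 (SE; limma adjusted p = 0.951; 95% interval -0.28 to 0.19). Sntb2 (beta2-syntrophin), which is known to pair with utrophin at neuromuscular junctions, measured 8.25, 8.80 and 8.66 with finerenone and 8.41, 8.31 and 8.39 without it. Of its treated values 2 lay above all untreated ones and 1, of replicate 1, lay below them all. The means were 8.57 ± 0.28 and 8.37 ± 0.055 (SD, n = 3 each), a log2 difference of 0.20 ± 0.15 (SE; 95% interval -0.16 to 0.55) with an adjusted p of 0.793 in limma.

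Values with single mice left out were less even for Dmd and Sntb2 than for Utrn, a contrast that was not itself tested. Leaving out each array in turn kept the difference of Utrn between -0.41 (without untreated replicate 2) and -0.26 (without untreated replicate 3), and its adjusted p ran from 0.409 to 0.870 over all 17 alternatives. Dmd ran from -0.035 without finerenone replicate 1 to -0.57 without finerenone replicate 3, where its unadjusted p in limma was 0.0339 and its adjusted p 0.531. It stood at -0.061 without finerenone replicate 2, -0.066 without untreated replicate 1, -0.39 without untreated replicate 2 and -0.21 without untreated replicate 3. Sntb2 was at 0.36 without finerenone replicate 1, with an unadjusted p of 0.0129 and an adjusted p of 0.758 in limma, and at 0.083 without finerenone replicate 2. Sntb1 remained between -0.11 (without untreated replicate 3) and -0.0050 (without untreated replicate 1). The sign of Dtnb turned without finerenone replicate 2 (-0.021) and without untreated replicate 3 (-0.0099).

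**Figure D2:**
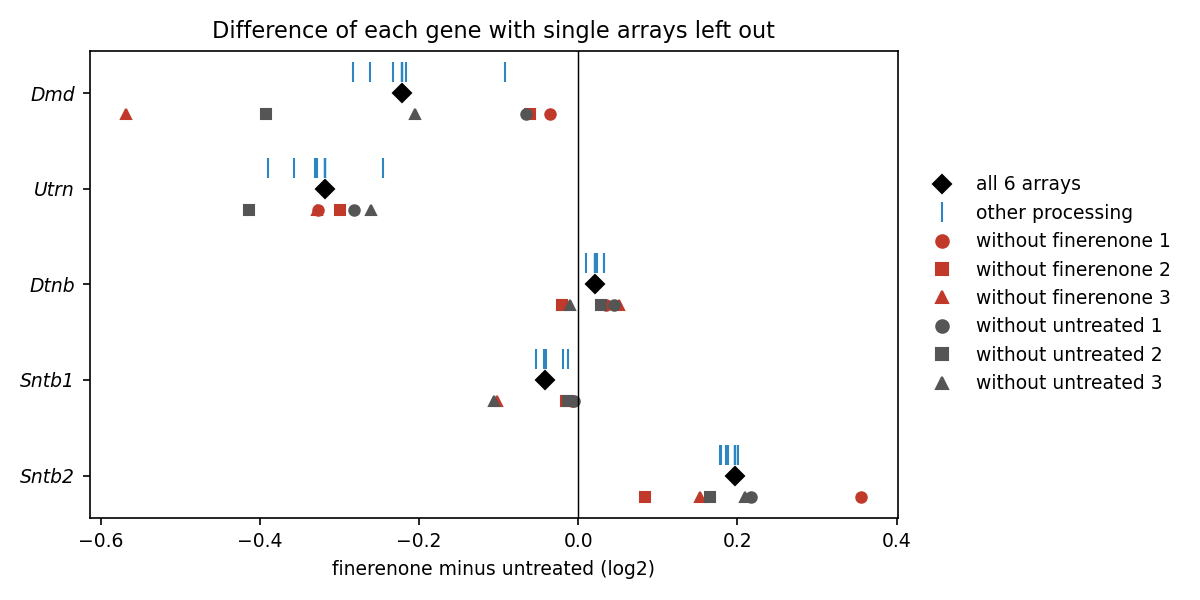
Log2 difference, finerenone minus untreated (x axis), of each of the 5 genes with all 6 arrays (black diamonds), under other processing (blue ticks) and with single arrays left out (red symbols for finerenone, grey for untreated, shape for the replicate). Values of Utrn stay between -0.41 and -0.24, whereas those of Dmd spread from -0.57 to -0.035 with the array left out.

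The other parts of the complex were described from a list of 14 measured genes. In limma 0 of the 14 passed over all genes, with 7 higher and 7 lower and a median difference of -0.011. At an unadjusted p below 0.05 there was 1 of the 14, beside 7.81% of all genes. That gene was Sgca, the alpha-sarcoglycan of the membrane complex, which averaged 12.42 ± 0.095 with finerenone and 11.87 ± 0.27 without it (SD, n = 3 each) and differed by 0.55 ± 0.15 on the log2 scale (SE; limma adjusted p = 0.597). It was higher in 3 of 3 treated hearts than in any untreated one. Dag1, which encodes the dystroglycan that dystrophin and utrophin bind, lay on the other side with 8.34 ± 0.066 against 8.55 ± 0.095 (SD, n = 3 each). Its log2 difference was -0.20 ± 0.086 (SE; limma adjusted p = 0.646), and its groups did not overlap either. Groups did not overlap for 2 of the 14, beside 12.4% of all genes. The remaining 12 had differences between -0.12 (Lama2, laminin alpha2) and 0.13 (Cav3, caveolin-3 of muscle). Of the 14, 6 were dimmer than the median of the negative control rows.

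Among 20 measured proteins that bind dystrophin, utrophin, dystrobrevin or syntrophin, the difference was positive for 8 and negative for 12, the median was -0.036 and 0 were past the threshold over all genes. At an unadjusted p below 0.05 there were 2, again to be read against 7.81% of all genes. Des, the intermediate filament desmin that links sarcomeres to the membrane, differed by 0.35 ± 0.089 (SE; limma adjusted p = 0.597), with 16.91 ± 0.054 against 16.56 ± 0.11 (SD, n = 3 each). Kcnj12, an inward rectifier potassium channel that binds syntrophin, differed by -0.26 ± 0.084 at a dim 5.34 against 5.59. Actb, beta-actin, had the most negative difference of the list at -0.28 ± 0.21, and its groups overlapped.

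Of 10 genes known to act on utrophin transcription or on its place at the membrane, 5 lay on each side of 0 with a median of -0.019, and in limma 0 were at an unadjusted p below 0.05. Gabpa, the Ets factor of the N-box, differed by -0.14 ± 0.086 (SE) and its partner Gabpb1 by 0.026 ± 0.076. Bgn (biglycan), a matrix proteoglycan that recruits utrophin to the membrane, had the highest difference of 0.36 ± 0.17 (limma adjusted p = 0.665). Its groups did not overlap, which held for 1 of the 10 and for 12.4% of all genes. Nrg1 (neuregulin), which induces utrophin through Ets factors, had the lowest, -0.48 ± 0.36, with SDs of 0.66 and 0.40 (n = 3 each). Ppargc1a, a coactivator of oxidative fibre genes, differed by 0.34 ± 0.25.

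Utrophin is also made by endothelium, and endothelial markers were lower in the same hearts. All 11 measured markers had a negative difference, as had 41.8% of all genes. The median of the markers was -0.35, beside 0.028 over all genes and -0.32 for Utrn. Without untreated replicate 1 that median was -0.21. The mean of the list was 10.61 to 10.88 on the finerenone arrays and 10.94 to 11.45 on the untreated ones, and 0 of the 11 were below the negative control median. Ptprb, an endothelial phosphatase, differed by -0.48 ± 0.19 (SE; limma adjusted p = 0.625) and Kdr, the VEGF receptor 2, by -0.86 ± 0.27 (adjusted p = 0.597), both with groups that did not overlap. Such groups were found for 2 of the 11, beside 12.4% of all genes. In whole ventricle, fewer cells of a type and less RNA per cell cannot be told apart. The part of endothelial cells in the difference of Utrn was not tested.

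Smooth muscle and pericyte markers were lower for 10 of 11 with a median of -0.055, and the list mean of 8.22 to 8.37 with finerenone overlapped that of 8.29 to 8.62 without it. That median was between -0.19 (without untreated replicate 2) and -0.083 (without finerenone replicate 2) with 1 array left out, and quantile normalization gave -0.18 and cyclic loess -0.13. Pdgfrb, a pericyte receptor, differed by -0.55 ± 0.16 (SE; limma adjusted p = 0.597), and Tagln, a smooth muscle actin-binding protein, by -0.43 ± 0.25. Macrophage and monocyte markers were higher for 14 of 15, beside 17543 of 30142 genes in all. Their median was 0.31, with list means of 8.80 to 8.99 against 8.49 to 8.84. Ccr2, a chemokine receptor of monocytes, differed by 0.51 ± 0.14 (limma adjusted p = 0.597) and Fcgr1, an Fc receptor, by 0.60 ± 0.20 (0.604). Ccr2 was dim, at 5.75 with finerenone against 5.24 without it. Medians of the negative control rows ran from 5.04 to 5.33 over the arrays. The macrophage median dropped to 0.17 when finerenone replicate 1 was left out, to 0.17 when untreated replicate 3 was, and to 0.21 when finerenone replicate 3 was. Cardiomyocyte markers had a median of 0.0065 (8 higher and 3 lower). Some of these rows are among the brightest of the array, with Tnnt2 at 19.92 to 19.93 and Myh6 at 19.60 to 19.65 on the 6 arrays, where a row may register little of a difference, so the median does not show that cardiomyocyte RNA was level. Fibroblast markers had a median of 0.15, with the microfibril gene Mfap5 at 0.54 ± 0.14 and the matrix gene Dpt (dermatopontin) at 0.52 ± 0.27, and list means of 10.44 to 10.97 against 10.38 to 10.75. The fibroblast median depended on single arrays, at 0.029 when untreated replicate 3 was left out, 0.089 when finerenone replicate 3 was, 0.25 when finerenone replicate 2 was and 0.30 when untreated replicate 2 was. Quantile normalization gave 0.062, cyclic loess 0.058 and removal of the trend on gene span and signal level 0.025. The markers of Schwann cells and nerve, with a median of 0.032, included Cdh19, a cadherin of Schwann cells, at 0.47 ± 0.12 and the glial factor Sox10 at 0.12 ± 0.097, and 6 of 7 were below the negative control median. Skeletal muscle markers had a median of 0.018, with the fast-fibre genes Mybpc2 (myosin-binding protein C) at 0.46 ± 0.088 and Myh1 (a myosin heavy chain) at -0.17 ± 0.089, and 5 of 13 were below that median. In limma 0 genes of these 7 lists passed over all genes, and the part of any of these cells in the values of the 5 genes was not tested.

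**Figure D3:**
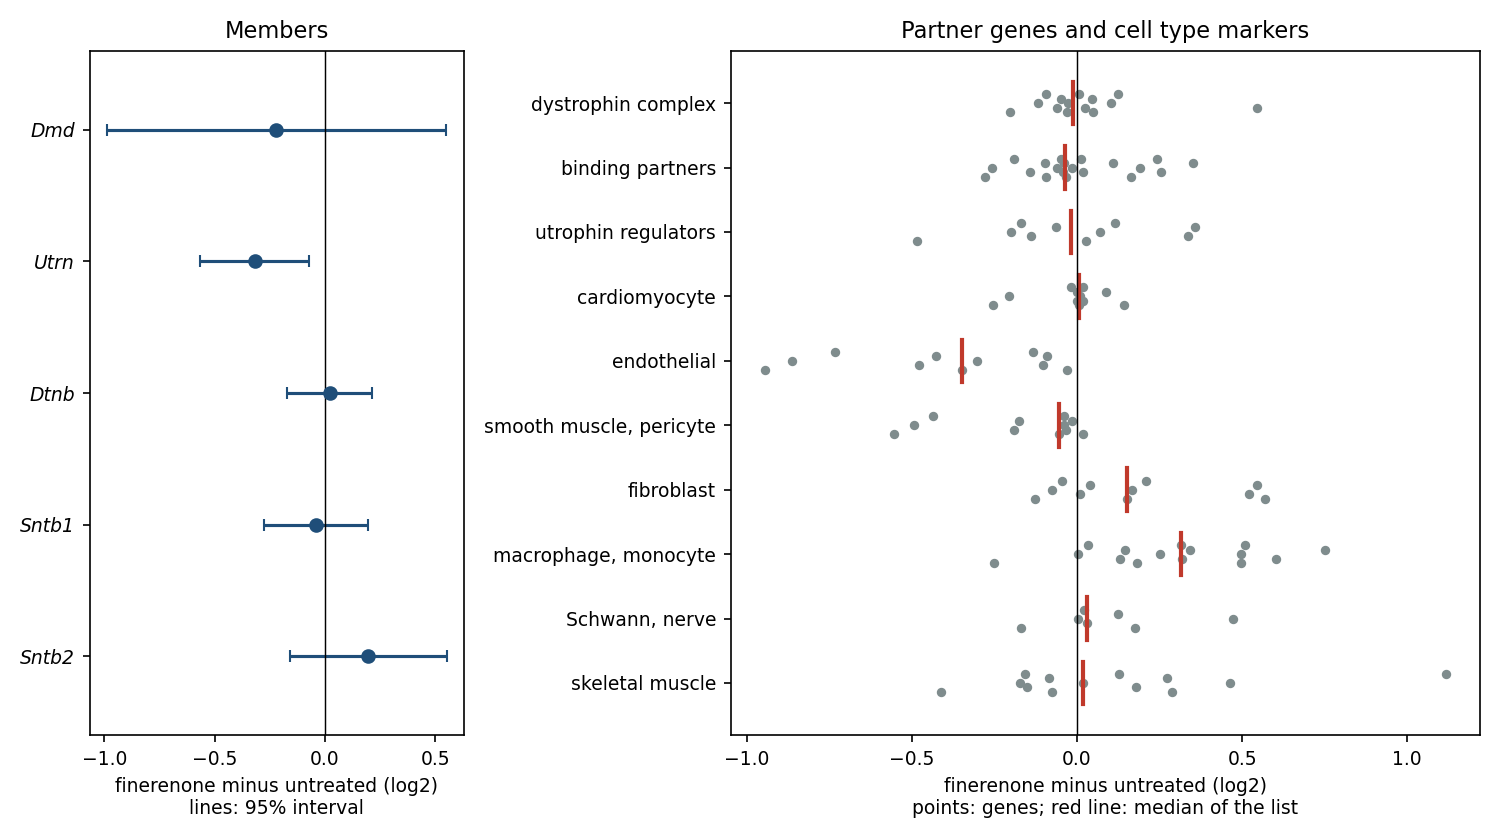
Log2 difference, finerenone minus untreated (x axes), of the 5 genes with 95% intervals (left) and of each gene in the partner and cell type lists (right, grey points, with a red line at the median of a list). The interval of Utrn lies between -0.57 and -0.070, that of Dmd between -0.99 and 0.55, and the endothelial list has its median at -0.35.

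Gene length moved with the differences among genes with a span in RefSeq and a mean signal of at least 6. Their median difference was 0.14 for the 4459 that span under 10 kb and -0.049 for the 426 that span over 200 kb. Of those 426 genes, 63.9% were lower with finerenone. Dmd (2390 kb), Utrn (488 kb) and Sntb1 (271 kb) are of the latter length, and Sntb2 spans 78.5 kb. Dtnb (213 kb) is as long, but its mean of 5.80 lies below that signal floor. With a trend on span and signal level removed from each array, Utrn differed by -0.24 ± 0.095 (SE; limma adjusted p = 0.660), Dmd by -0.092 ± 0.26 and Sntb2 by 0.20 ± 0.15. Sntb1 then differed by -0.013 ± 0.10 and Dtnb by 0.024 ± 0.085.

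The profile of Dmd over the mice was compared with 8887 named genes of mean signal at least 6, by the root mean square difference of log2 values after the mean of each gene was subtracted. The nearest was a row listed as Mir1950 (0.098), followed by one listed as Drr1 (0.14) and by Tagln (0.14), the smooth muscle marker above. The name Mir1950 is that of the platform annotation, and the cluster identifier points to another chromosome than RefSeq gives for this microRNA. The Tagln row measured 6.86, 6.90 and 7.70 with finerenone and 7.86, 7.35 and 7.56 without it. Of the cardiomyocyte markers named, Ttn (titin) measured 16.43, 16.14 and 17.12 against 16.90, 16.43 and 17.12, and Ryr2, the calcium release channel, 16.19, 15.80 and 16.77 against 16.48, 16.11 and 16.79. In these 3 genes, as in Dmd, finerenone replicate 3 and untreated replicates 1 and 3 were above the mean of the 6 arrays and the other 3 arrays below it. Ttn was set beside Dmd after its values were seen, as was Ryr2, and Tagln was picked for its likeness to Dmd. The shared positions follow from these choices.

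For Utrn the nearest profiles were those of Apbb2, an adaptor that binds the amyloid precursor protein (0.046), Asah2, a neutral ceramidase (0.054), and Lpcat3, a phospholipid acyltransferase (0.055). Apbb2 measured 9.83, 9.81 and 9.81 with finerenone and 10.12, 9.89 and 10.15 without it. It was picked for its likeness to Utrn, so that its groups did not overlap follows from the choice. Sntb2 was nearest to Zfp961 (0.044), Heg1, a receptor of endothelial cells (0.055), and Tagln2 (0.065). Sntb1 was nearest to Zfp281, Fam172a and Ywhag (0.029 to 0.037), and Dtnb to Trim5, Ttc23 and Atp8b2 (0.014 to 0.028). Between Utrn and Dmd the measure was 0.36, and from Dmd to each other member it ran from 0.36 (Sntb1) to 0.44 (Dtnb). The measure is not scaled by the spread of a gene. It is therefore small between genes that vary little, such as Dtnb, and large for Dmd.

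**Figure D4:**
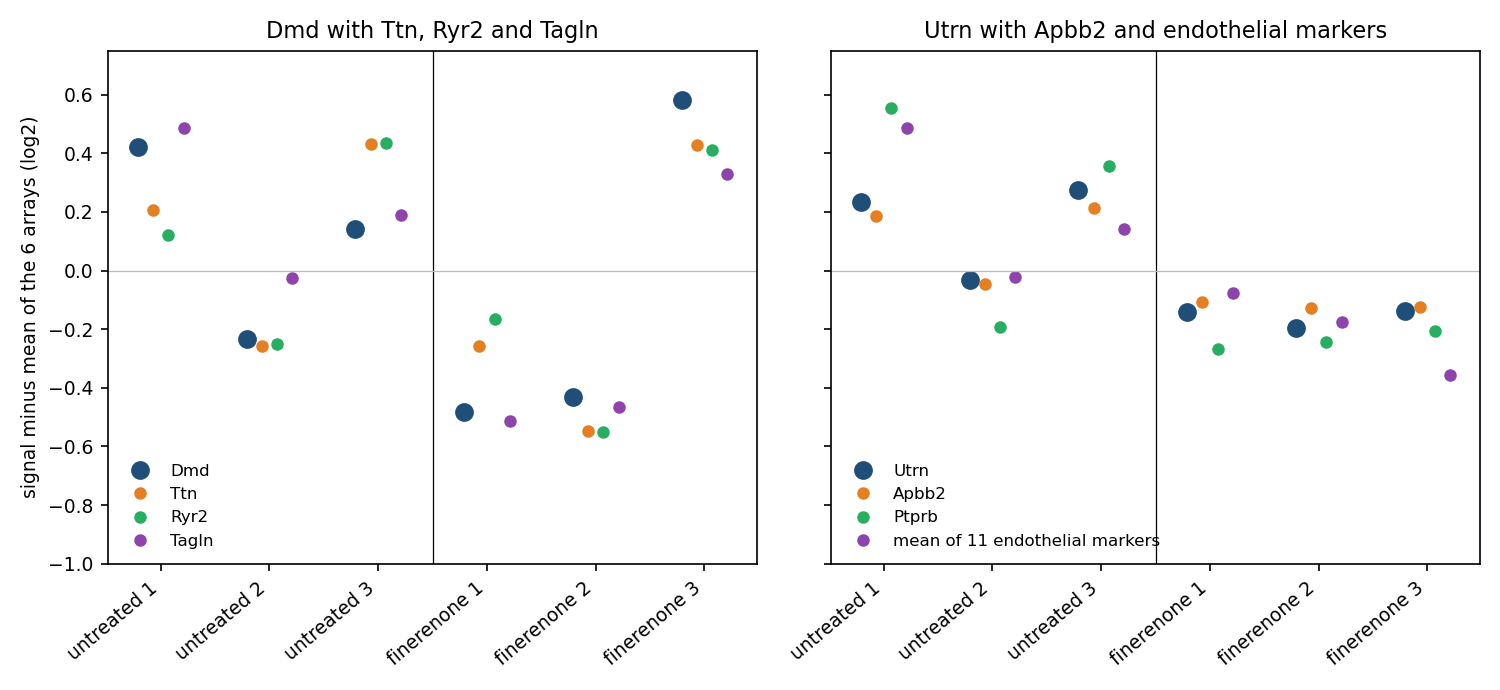
Log2 signal of each array minus the mean of the gene over the 6 arrays (y axis), for Dmd with Ttn, Ryr2 and Tagln (left) and for Utrn with Apbb2, Ptprb and the mean of 11 endothelial markers (right), with arrays on the x axis and no order among replicates. Dmd is highest in finerenone replicate 3 and lowest in finerenone replicate 1, whereas Utrn lies below its mean in all 3 finerenone hearts. Ptprb is 1 of the 2 endothelial markers named for the lowest p, so that its groups separate follows from the choice. Kdr, the other of these markers, is not drawn. The endothelial list was chosen with earlier results of these data known, and its likeness to Utrn was not tested.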

How the data were processed

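RNA of 6 ventricles was hybridised to Affymetrix arrays. The deposited values are log2 signals per transcript cluster, which the authors obtained by RMA. The submitters' processing notes name Affymetrix Expression Console and, besides it, Transcriptome Analysis Console; versions, build and further steps: not given in the sources used here. Of 72688 rows, 6732 were controls. Rows were named where the platform annotation held 1 distinct symbol (30604 rows), with symbols updated by Entrez identifier to RefSeq (GRCm38.p6), and the row with the highest mean was used (30142 genes, no filter).

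Groups and replicate numbers came from the sample titles. Differences were fitted by limma's lmFit and eBayes (version 3.58.1, R 4.3.3; two-sided, no covariate) over all genes with Benjamini-Hochberg adjustment and a threshold of 0.05, and the code was tested on simulated data. Intervals are the 95% intervals of that fit. Tables used pandas 2.3.3 under Python 3.11.15, and plots matplotlib 3.10.9. RNA integrity numbers were above 7.3, per the labels. Some genes of the lists are not reported here. Genes and lists were chosen with earlier results of these data known. From partner lists, the text names genes at an unadjusted p below 0.05 and the largest difference in each direction, from cell type lists the 2 lowest p, and for each member the 3 nearest profiles, leaving out predicted genes; Gabpa, Gabpb1, Ppargc1a, Lama2 and Cav3 were added after their values were seen. Alternatives were 3 further normalizations, filters on dim genes, means of rows, another prior, array weights, a replicate block, each array left out, removal of a trend with gene span, all rows and another threshold.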

Additional observations from a re-analysis of the deposited data

How the results depend on the processing

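No alternative gave a gene of the 5 an adjusted p below 0.05 in limma. Leaving out 1 array, the differences ran from -0.57 to -0.035 for Dmd, -0.41 to -0.26 for Utrn, -0.021 to 0.051 for Dtnb, -0.11 to -0.0050 for Sntb1 and 0.083 to 0.36 for Sntb2; the reversed values of Dtnb were -0.021 without finerenone replicate 2 and -0.0099 without untreated replicate 3. Over the other 11 alternatives Utrn ran from -0.39 (quantile normalization) to -0.24 (trend removed), with an unadjusted p of 0.00779 to 0.0364 (0.00374 to 0.0667 with 1 array left out), and Dmd from -0.28 to -0.092. Dtnb was not tested among genes with a mean of at least 6, being dimmer. The count of genes at an unadjusted p below 0.05 was 2353 of 30142 in the main fit. It was 1541 of 15071 genes at or above the median level and 1305 of 11356 genes with a mean of at least 6. Over all transcript rows it was 4138 of 65956. The share thus changed as well as the number tested. Without single arrays the count ran from 1691 to 2789. Past the adjusted threshold the count was 0 in every alternative, the threshold of 0.1 included. Of the 2353 genes 72.9% were higher with finerenone, against 59.2% of 2134 after quantile normalization. The share was 52.5% of 2166 once the joint trend with gene span and signal level was removed. With the replicate number as a block, Utrn stood at -0.32 (limma adjusted p = 0.641), Dmd at -0.22 and the count was 2319. Deviations of same-numbered arrays correlated at -0.15, 0.059 and 0.058. These values show no pairing by number, but with 3 arrays per group they cannot exclude it. Medians of the lists moved beyond the spread of their array means in 5 of 110 settings, 3 of them for the binding partners. That limit differs between lists, at 0.020 for the binding partners and 0.23 for fibroblasts. The fibroblast median thus counted 0 moves although it ran from 0.025 to 0.30. The endothelial median ran from -0.47 to -0.21. Medians of the complex, utrophin regulators, cardiomyocytes, Schwann cells and skeletal muscle took both signs.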
